A study of Mus musculus with 39 samples.

Results

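The growth hormone and insulin-like growth factor (IGF) axis was followed in mouse liver through 10 genes: the receptor Ghr, the transducers Stat5a and Stat5b, the feedback inhibitors Cish and Socs2, the hormone Igf1, its circulating partner Igfals, and the binding proteins Igfbp1, Igfbp2 and Igfbp4. Their array features were found by gene name through the RefSeq transcript of each feature, and the genes were chosen with earlier results of these data known. They had 14 of the 25903 features with a RefSeq transcript, and made 10 of the 18259 genes that were tested. Ghr had 3 features, Igfbp4 and Stat5b had 2 each, and the other 7 genes had 1, which for Igf1 was printed as 10 spots. Each gene is given by its feature with the highest mean signal.

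All 39 mice were male C57BL/6J, 5 to 6 weeks old before the sessions and singly housed throughout. Aggressor-exposed mice (AggE) spent 6 hrs a day for 5 or 10 days in a small cage inside the home cage of a trained aggressor (SJL albino), without food or liquid, and were taken out of the small cage for brief attacks. Control mice (Ctrl) went through the same sessions with no aggressor, so that isolation and the daily loss of food were common to both. Livers were taken at 24 hrs post-5-day stressor (5 AggE and 4 Ctrl mice), 24 hrs post-10-day stressor (5 and 4), 1.5 wks post-5-day stressor (5 and 4) and 4 wks post-10-day stressor (6 and 6), and all mice met the cue of an aggressor behind a partition 1 hr before collection. The question of each comparison was whether a transcript differed between AggE and Ctrl livers at that time. The labels disagree in places, and the groups follow the label of the liver RNA itself. At 24 hrs post-5-day another field names 1 day of stress for every AggE mouse. At 1.5 wks the titles of all 5 AggE mice carry a 10 in place of a 5, as does that of Ctrl mouse 4. The title of this Ctrl mouse also has a prefix (HC) that no other mouse has, so it cannot be told from the labels whether the comparison at 1.5 wks mixes regimens or kinds of control.

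Growth hormone from the pituitary binds its receptor on hepatocytes, which activates the kinase JAK2 and the transcription factors STAT5A and STAT5B. These enter the nucleus and bind the GAS motif near genes such as Igf1, Igfals, Cish and Socs2. IGF-1 then circulates in a complex with a binding protein and the acid-labile subunit that Igfals encodes, whereas CIS and SOCS2 bind the activated receptor and dampen it. Growth hormone is secreted in pulses in male mice, and transcripts such as Cish rise and fall with them, whereas Igfbp1 rises on fasting and is repressed by insulin.

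The windows from 250 bases before to 50 bases after the transcription start in RefSeq (GRCm38.p6) show where these motifs are found among the members. They cover 9 of the 10 genes, all but Socs2, in 15 windows of 300 bases. The GAS motif was searched as TTCNNNGAA, which is its own reverse complement, and 8.30% of all 32851 windows hold at least 1 and 0.457% at least 2. The Cish window holds 2 and 2 of the 3 Igfals windows hold 1 each, whereas the windows of the other 7 genes searched hold none. The motif CAAAACA, known from the insulin response of Igfbp1 and searched on both strands, is in 6.28% of windows and, among the members, only in that of Igfbp1. The stretches are shown for the 2 genes with a GAS motif and for Igfbp1, the member that varied most between mice. All are on the + strand, 5′ to 3′, with the motif in capitals: the Cish stretch is chr9:107296654-107296683, those of Igfals are chr17:24877598-24877627 and chr17:24878163-24878192, and that of Igfbp1 is chr11:7197637-7197736.
Cish, from 5 bases before to 24 after the start: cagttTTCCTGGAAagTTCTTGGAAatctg
Igfals, the first window, motif at -236 from the start: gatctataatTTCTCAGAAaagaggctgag
Igfals, the second window, motif at -58 from the start: ctgccaggtgTTCCTAGAAgaggccctggg
Igfbp1, motif at -108 from the start: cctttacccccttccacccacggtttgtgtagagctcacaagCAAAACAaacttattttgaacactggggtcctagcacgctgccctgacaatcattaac

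Levels are log2 ratios of liver (Cy-5) to a reference RNA that was the same on every array (Cy-3), so that a value of 0 is the level of the reference and 1 more is a doubling. They compare mice for 1 gene and not 1 gene with another. The share of features well above background was 15.2% to 47.7% per array at 1.5 wks and 42.0% to 70.4% at 4 wks, with the 24 hrs arrays between 15.7% and 44.3%. The arrays lay on 11 slides, and at 24 hrs no slide held both AggE and Ctrl livers of the same regimen, so there slide and group cannot be told apart. By their file headers, all 24 hrs arrays were scanned on 1 day and all 4 wks arrays on another. At 1.5 wks AggE mouse 2 (47.7% well above background) and Ctrl mouse 4 (40.9%) were scanned on the 4 wks day. The other mice of 1.5 wks were scanned on the 24 hrs day. Of 6 hepatocyte markers, 5 were on the array and were well above background on all 39 arrays, but their summed Cy-5 signal (log2) was 16.2 to 16.8 at 1.5 wks and 16.8 to 17.5 at the other times. The 3 pancreas markers were not well above background on most arrays. In whole liver, fewer cells of a type and less RNA per cell cannot be told apart.

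None of the 10 genes passed an adjusted p of 0.05 (limma's moderated t, Benjamini-Hochberg over all features) between AggE and Ctrl at any time. The lowest adjusted p among them was 0.622 at 24 hrs post-5-day, 1.00 at 24 hrs post-10-day, 1.00 at 1.5 wks and 0.0790 at 4 wks. Of all genes tested, 3.25%, 0.0931%, 0% and 3.96% passed in the same comparisons. At an unadjusted p of 0.05 none of the 10 passed at 24 hrs post-5-day, against 17.1% of all genes, and none at 24 hrs post-10-day, against 2.86%. At 1.5 wks 1 of 10 passed (Igfbp4), against 2.5%. At 4 wks 5 of 10 passed (Igf1, Igfals, Cish, Stat5a and Stat5b), against 22.3% of all genes, 4 of them with lower and 1 with higher AggE means. With slide as a fixed block in the fit, only Stat5a of the 10 passed this limit at 4 wks. The 10 genes had a median log2 fold change of 0.05, -0.09, 0.04 and -0.31 in the order of these comparisons, and that of all genes was 0.00, 0.00, 0.00 and 0.01. AggE and Ctrl mice overlapped for every one of the 10 genes at every time. Overlap was not counted over all genes, for these or for the genes named below.

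**Figure D1:**
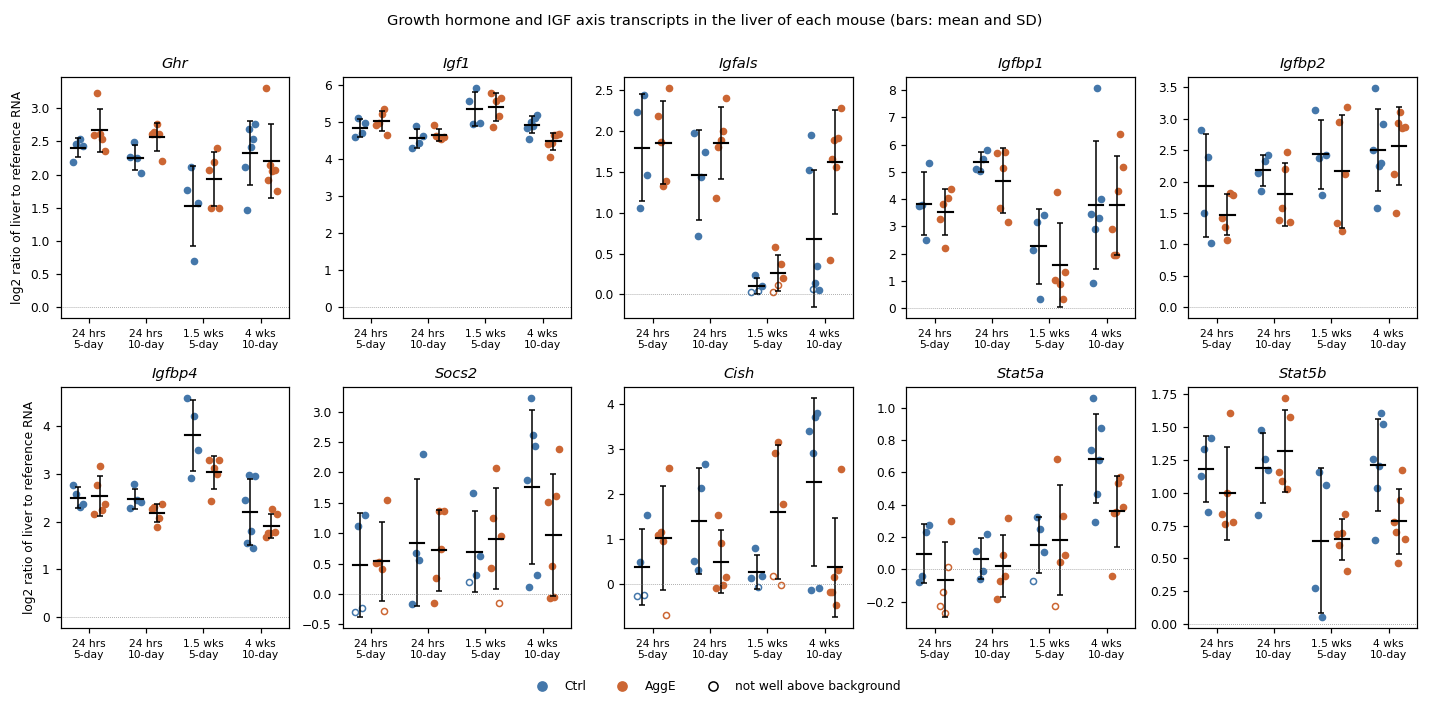
Log2 ratio of liver to reference RNA (y axis) of each of the 10 genes in each of 39 mice, by time and regimen (x axis), with Ctrl in blue and AggE in orange. Bars are group means with SD, and open circles were not well above background. AggE and Ctrl mice overlap in every panel and at every time, and Igfals lies near 0 in all 9 mice at 1.5 wks.

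**Figure D2:**
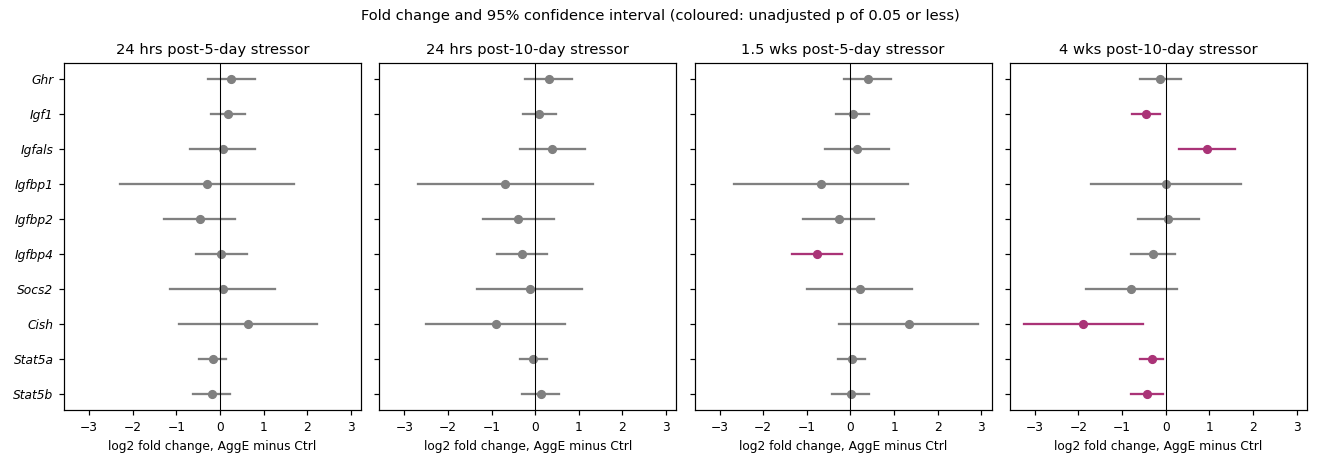
Log2 fold change of AggE over Ctrl (x axis) with its 95% confidence interval for the 10 genes (y axis) in the 4 comparisons, coloured where the unadjusted p was 0.05 or less. Coloured are Igfbp4 at 1.5 wks and Igf1, Igfals, Cish, Stat5a and Stat5b at 4 wks.

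Ghr, the growth hormone receptor, was close in AggE and Ctrl livers at 4 wks and had higher AggE means at the 3 earlier times. At 24 hrs post-5-day it was 2.20, 2.46, 2.54 and 2.43 in Ctrl mice and 2.60, 3.22, 2.61, 2.54 and 2.35 in AggE mice. The fold change was 0.26 ± 0.27 (log2, SE; adjusted p = 0.697), with 4 of 5 AggE mice above the highest Ctrl mouse and AggE mouse 5 among the Ctrl mice. The other 2 Ghr features gave 0.27 and 0.29, each with fewer AggE mice above the highest Ctrl mouse. At 24 hrs post-10-day the difference was 0.31 ± 0.27 (adjusted p = 1.00), with 4 of 5 AggE mice above the highest Ctrl mouse, 2.49. This held for 1 feature: the other 2 Ghr features gave 0.10 and 0.02 at that time, and on neither did an AggE mouse lie above the highest Ctrl mouse. At 1.5 wks it was 0.40 ± 0.27 (95% confidence interval -0.14 to 0.94, adjusted p = 1.00), with Ctrl mouse 3 at 0.69 as the lowest of all 39 mice, and without this mouse it was 0.12. The other 2 features gave 0.33 and 0.29 at 1.5 wks. At 4 wks the difference was -0.12 ± 0.23, but 0.51 (adjusted p = 0.415) with slide as a fixed block in the fit. On the 1 slide with both groups the AggE mouse had 3.30, the highest level of all 39 mice, and the 3 Ctrl mice had 2.42 to 2.76. The other 2 Ghr features gave -0.09 and 0.23 at 4 wks, neither with an unadjusted p of 0.05 or less.

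Stat5a and Stat5b, which encode the transcription factors that the receptor activates, both had lower means in AggE livers at 4 wks. Stat5a was 0.29 at the lowest, 0.70 at the median and 1.06 at the highest in Ctrl mice, and -0.04, 0.37 and 0.57 in AggE mice. Only the lowest Ctrl mouse and 1 other lay within the AggE range. The fold change was -0.33 ± 0.13 (95% confidence interval -0.59 to -0.06, adjusted p = 0.146). Stat5b ran from 0.64 over a median of 1.23 to 1.61 in Ctrl mice and from 0.47 over 0.74 to 1.17 in AggE mice, so that 4 of 6 Ctrl mice lay above every AggE mouse. Its fold change was -0.43 ± 0.18 (-0.79 to -0.06, adjusted p = 0.171). The unadjusted p was above 0.05 with the mean over both Stat5b features (-0.14), from Cy-5 alone (-0.29), with slide as a fixed (-0.51) or random block (-0.44), and without AggE mouse 3 (-0.36), Ctrl mouse 5 (-0.35) or Ctrl mouse 6 (-0.36). The second Stat5b feature gave 0.14 (adjusted p = 0.198), but was well above background on 1 of 39 arrays. At the 3 earlier times the differences lay between -0.19 and 0.13 for both genes, with adjusted p of 0.663 or more.

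The value of Stat5a at 4 wks depended on the fit and on single mice. With slide as a fixed block it was -0.77 (adjusted p = 0.0244) and without quantile normalization -0.46 (adjusted p = 0.0374), both past the threshold, but with slide as a random block it was -0.48 and did not pass (adjusted p = 0.148). Without AggE mouse 1 it was -0.25 (adjusted p = 0.269) and without Ctrl mouse 2 it was -0.25 (adjusted p = 0.256), in both cases no longer with an unadjusted p of 0.05 or less. On the 1 slide with both groups it was -0.04 in the AggE mouse and 0.47 to 0.87 in the 3 Ctrl mice. Over all mice, with group means removed, Stat5a went with the share of features well above background on its array (r = 0.55), more than any other of the 10 genes, and whether that share had a part in the result was not tested.

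Cish, the STAT5-induced inhibitor CIS, split the Ctrl mice at 4 wks into high and low. It was 3.40, 2.91, 3.70 and 3.78 in Ctrl mice 1, 3, 4 and 5 and -0.12 and -0.08 in Ctrl mice 2 and 6. In AggE mice it was -0.17, -0.16, 0.17, -0.45 and 0.31, with only AggE mouse 6 high, at 2.56. The low Ctrl mice thus had levels within the AggE range, and the difference lay in how many mice were high. The fold change was -1.89 ± 0.67 (log2, SE), 3.71-fold lower in AggE livers (95% confidence interval -3.26 to -0.52, adjusted p = 0.102). Cish alone of the 10 genes met both a 2-fold limit and the unadjusted p limit, as did 0.307% of all genes.

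The Cish result rested on single mice for its side of the threshold. Without AggE mouse 6 the fold change was -2.33 (adjusted p = 0.0450), without Ctrl mouse 2 it was -2.37 (adjusted p = 0.0267), and without Ctrl mouse 6 -2.36 (adjusted p = 0.0494). On the slide with both groups the AggE mouse was at -0.17 and the Ctrl mice at 3.70, 3.78 and -0.08. With slide as a fixed block the fold change was -2.22 (adjusted p = 0.293), no longer with an unadjusted p of 0.05 or less. It was -2.84 with the processed signals and -2.94 from the deposited log10 ratios, neither past the threshold.

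At the earlier times the SD of Cish in a group was 0.38 (Ctrl, 1.5 wks) to 1.48 (AggE, 1.5 wks). At 24 hrs post-5-day it was -0.27, 0.49, -0.23 and 1.53 in Ctrl mice and 1.1, 1.15, 0.96, -0.67 and 2.58 in AggE mice (0.65 ± 0.78, adjusted p = 0.760). At 24 hrs post-10-day it was 0.51, 0.32, 2.14 and 2.66 in Ctrl mice and -0.07, 1.53, 0.91, -0.02 and 0.16 in AggE mice (-0.91 ± 0.78, adjusted p = 1.00). At 1.5 wks it was 0.15, 0.81, -0.06 and 0.19 in Ctrl mice and 0.19, 2.92, 3.15, -0.02 and 1.77 in AggE mice (1.33 ± 0.78, adjusted p = 1.00). High mice were thus found in AggE at 1.5 wks and mainly in Ctrl at 4 wks, and the intervals of all 3 earlier differences span 0. Of all 39 mice, 15 had a Cish level of 1 or more, and the range was 21.9-fold.

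Socs2, the second STAT5-induced inhibitor, followed Cish from mouse to mouse. At 4 wks it ran from 0.12 over a median of 2.15 to 3.22 in Ctrl mice and from -0.06 over 0.99 to 2.38 in AggE mice. Ctrl mice 2 and 6, low in Cish, were the lowest Ctrl mice in Socs2 (0.12 and 0.31), and AggE mouse 6, high in Cish, was the highest AggE mouse (2.38). The difference of -0.79 ± 0.51 did not pass (adjusted p = 0.403), and at the other times it was between -0.13 and 0.22 with SE of 0.59. Across the 39 mice, with group means removed, Cish and Socs2 correlated with r = 0.80 and rho = 0.82 (permutation within groups, 100000 draws, two-sided, p = 1e-05 for both, the smallest they can give, and adjusted p = 0.00045 over 45 pairs). Without the 2 mice farthest from the median of Socs2 r was 0.79, and with slide means removed as well it was 0.81. By group r was lowest, 0.03, for AggE post-10-day and highest, 0.98, for AggE post-5-day, both at 24 hrs.

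**Figure D3:**
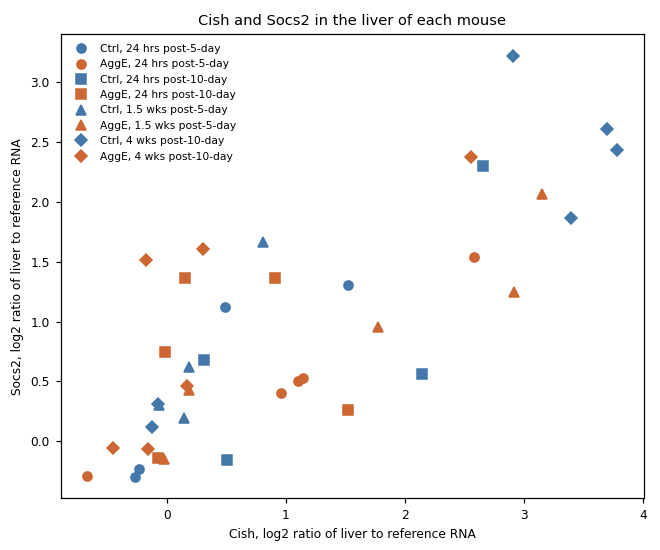
Cish (x axis) against Socs2 (y axis), both as log2 ratio of liver to reference RNA, in each of 39 mice, with colour for Ctrl or AggE and symbol for time and regimen. High levels of both are found together, in mice of both groups, with r = 0.80 after group means are removed.

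Igf1, the hormone that growth hormone induces in liver, had a lower mean in AggE livers at 4 wks. It ran from 4.54 over a median of 4.96 to 5.19 in Ctrl mice and from 4.07 over 4.54 to 4.68 in AggE mice. Only Ctrl mouse 2, at 4.54, lay within the AggE range. The fold change was -0.45 ± 0.16 (log2, SE), 1.37-fold lower (95% confidence interval -0.78 to -0.12, adjusted p = 0.102). Without Ctrl mouse 2 it passed (adjusted p = 0.0452), and without quantile normalization it was -0.81 and passed (adjusted p = 0.0103). Without background subtraction it was -0.21 (adjusted p = 0.719), with the processed signals and from Cy-5 alone -0.26, from the deposited log10 ratios -0.29, and with slide as a fixed block -0.47 (adjusted p = 0.334). The unadjusted p was above 0.05 without background subtraction, with the processed signals and with slide as a fixed block. On the slide with both groups the AggE mouse had 4.41 and the Ctrl mice 4.91 to 5.19. The median SD between the 10 Igf1 spots of an array was 0.241, for single spots. The SD between mice of a group, 0.288, was computed on the mean of the spots, so that they are not on the same scale.

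At the 3 earlier times the means of Igf1 were closer and the mice of both groups mixed. At 24 hrs it was 4.60, 5.11, 4.71 and 4.97 in Ctrl and 4.94, 4.97, 5.24, 5.37 and 4.65 in AggE mice post-5-day (0.18 ± 0.19, adjusted p = 0.695). Post-10-day it was 4.31, 4.90, 4.43 and 4.62 in Ctrl and 4.93, 4.64, 4.59, 4.54 and 4.60 in AggE mice (0.09 ± 0.19, 95% confidence interval -0.29 to 0.47, adjusted p = 1.00). At 1.5 wks it was 5.57, 4.96, 5.93 and 4.99 in Ctrl and 5.80, 4.87, 5.58, 5.18 and 5.65 in AggE mice (0.05 ± 0.19). The change at 24 hrs post-10-day exceeded that at 4 wks by 0.54 ± 0.25 (0.04 to 1.05, adjusted p = 0.541), and Igf1 was the 1 gene of 10 with an unadjusted p of 0.05 or less in this difference, against 9.75% of all genes. It no longer had one without background subtraction (0.30), with the processed signals (0.30), from the deposited log10 ratios (0.36), from Cy-5 alone (0.38), without quantile normalization (0.60) or with slide as a random block (0.56). The same held without Ctrl mouse 1 (0.46), Ctrl mouse 3 (0.50) or AggE mouse 1 (0.48) of 24 hrs and without AggE mouse 2 (0.46), Ctrl mouse 5 (0.51) or Ctrl mouse 6 (0.49) of 4 wks.

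Igfals, which encodes the acid-labile subunit, was the only one of the 5 genes with a higher level in AggE livers at 4 wks. It was 1.53, 1.96, 0.07, 0.14, 0.35 and 0.05 in Ctrl mice 1 to 6 and 0.42, 1.66, 1.89, 1.56, 1.92 and 2.29 in AggE mice 1 to 6. The fold change was 0.94 ± 0.31 (log2, SE), 1.92-fold higher (95% confidence interval 0.31 to 1.58, adjusted p = 0.0790). Ctrl mice 3 to 6 had a Cy-5 signal of 6.56 to 6.75 (log2), within the 6.41 to 6.97 of the arrays of 1.5 wks, and Ctrl mouse 3 was not well above background. The size differed with the handling of the background: it was 1.24 without background subtraction (adjusted p = 0.142) and 1.52 with the processed signals (adjusted p = 0.334). The 12 arrays lay on 4 slides, named A to D here, with Ctrl mice 1 to 3 on A, Ctrl mice 4 to 6 and AggE mouse 1 on B, AggE mice 2 to 5 on C and AggE mouse 6 on D. All 4 mice on B had 0.05 to 0.42 and all 4 on C had 1.56 to 1.92, whereas the 3 Ctrl mice on A spanned 0.07 to 1.96. The difference was 0.35 with slide as a fixed block (adjusted p = 0.747), 0.73 with slide as a random block (adjusted p = 0.330), and without quantile normalization 0.73 (adjusted p = 0.325). Without AggE mouse 1 it was 1.18 (adjusted p = 0.0126) and without Ctrl mouse 2 it was 1.20 (adjusted p = 0.0135).

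**Figure D4:**
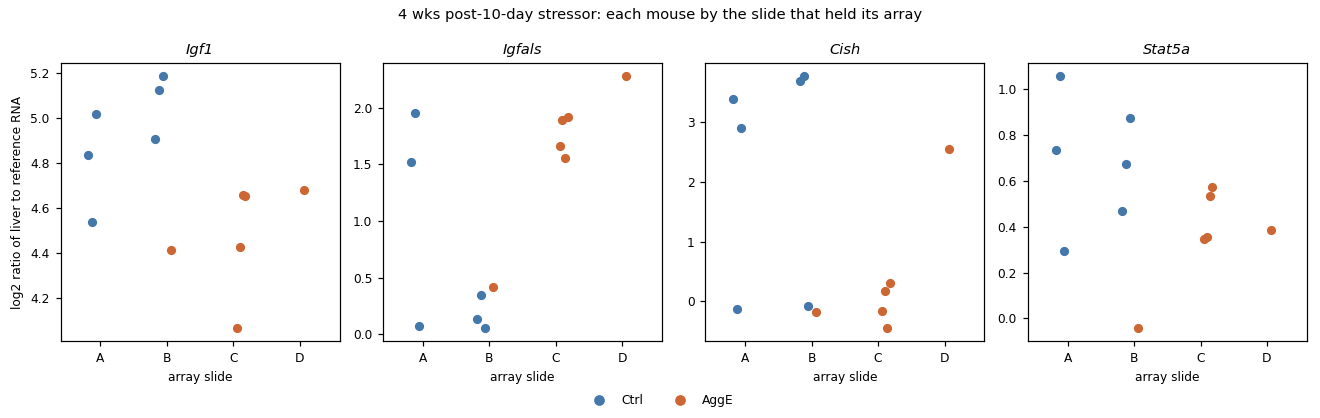
Log2 ratio of liver to reference RNA (y axis) of Igf1, Igfals, Cish and Stat5a at 4 wks post-10-day stressor by array slide (x axis, A to D), with Ctrl in blue and AggE in orange. Slide B alone holds both groups: there the AggE mouse is below the 3 Ctrl mice in Igf1 (4.41), Cish (-0.17) and Stat5a (-0.04), and just above them in Igfals (0.42).

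Igfals also differed between times of collection, in AggE and Ctrl mice. At 24 hrs it was 0.71 to 2.53 in both groups and regimens, and the AggE means exceeded the Ctrl means by 0.06 ± 0.36 and 0.39 ± 0.36. Both differences turned sign under 4 of 12 alternative settings. The difference post-5-day also did in 4 of 9 fits that each left out a mouse. At 1.5 wks it was 0.03, 0.24, 0.04 and 0.10 in Ctrl and 0.04, 0.58, 0.12, 0.37 and 0.20 in AggE mice, of which 2 in each group were not well above background (0.16 ± 0.36, adjusted p = 1.00). All 9 mice at 1.5 wks thus lay below all 18 at 24 hrs. On a slide that held 3 of these AggE mice (0.04, 0.12 and 0.37) and 1 AggE mouse of 24 hrs post-5-day, the latter had 2.53. The times were not compared by a test, and the hepatocyte markers were lower at 1.5 wks too.

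Igfbp1, a binding protein of the fasting liver, had the widest range of the 10 genes, from 0.35 to 8.07, or 211-fold over 39 mice. At 24 hrs post-10-day it was 5.11, 5.03, 5.49 and 5.81 in Ctrl and 5.68, 3.68, 5.13, 5.74 and 3.14 in AggE mice (-0.68 ± 0.98, adjusted p = 1.00). At 1.5 wks it was 2.13, 3.14, 0.35 and 3.42 in Ctrl and 1.04, 4.27, 0.90, 0.35 and 1.34 in AggE mice (-0.68 ± 0.98, adjusted p = 1.00). At 4 wks it ran from 0.91 to 8.07 in Ctrl and from 1.96 to 6.39 in AggE mice, with means of 3.78 in both. The difference at 4 wks ran from -0.57 to 0.86 when each mouse was left out, and was -1.42 with slide as a fixed block. The 95% confidence intervals were about 2 wide on either side (-1.72 to 1.72 at 4 wks), so that 2-fold changes in either direction were not detectable with these numbers of mice. At 24 hrs post-5-day the difference was -0.30 ± 0.98, with Ctrl mice at 2.52 to 5.33 and AggE mice at 2.21 to 4.37.

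Igfbp2, a second binding protein of the liver, had lower AggE means at all times but 4 wks, none past a threshold. Post-5-day it was 2.82, 1.51, 2.39 and 1.03 in Ctrl and 1.41, 1.27, 1.07, 1.82 and 1.79 in AggE mice (-0.46 ± 0.40, adjusted p = 0.622). The difference was -0.38 ± 0.40 at 24 hrs post-10-day, -0.27 ± 0.40 at 1.5 wks and 0.06 ± 0.34 at 4 wks. With slide as a fixed block the value at 1.5 wks was 0.54 (adjusted p = 1.00), so its direction turned with that setting.

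Igfbp4, a binding protein that can hold IGF-1 away from its receptor, had a lower AggE mean at 1.5 wks. It was 4.59, 2.92, 4.22 and 3.49 in Ctrl and 3.30, 2.44, 3.13, 3.01 and 3.29 in AggE mice. Ctrl mouse 2 lay within the AggE range and the other 3 Ctrl mice above it. The fold change was -0.77 ± 0.28 (95% confidence interval -1.35 to -0.20, adjusted p = 1.00). Without Ctrl mouse 1 it was -0.51, with the processed signals -0.56 and with slide as a fixed block -0.77, in these 3 cases no longer with an unadjusted p of 0.05 or less. Without Ctrl mouse 4, whose title differs, it was -0.88 (adjusted p = 1.00). The second Igfbp4 feature gave -0.22 (adjusted p = 1.00). At 24 hrs the differences were 0.04 ± 0.28 and -0.29 ± 0.28, and at 4 wks -0.29 ± 0.24 with Ctrl mice at 1.45 to 2.97 and AggE mice at 1.67 to 2.27.

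The changes at 2 times or after 2 regimens were also set against each other in the same fit. None of the 10 genes passed an adjusted p of 0.05 for 24 hrs post-5-day minus 24 hrs post-10-day (0.0329% of all genes did), for 24 hrs minus 1.5 wks post-5-day (0.0876%) or for 24 hrs minus 4 wks post-10-day (0.0767%). At an unadjusted p of 0.05 none passed in the first, against 6.41% of all genes, none in the second, against 7.7%, and Igf1 alone in the third. Stat5b in the third (0.56 ± 0.28, adjusted p = 0.570) and Igfbp4 in the second (0.81 ± 0.40, adjusted p = 0.648) came closest to it.

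Ordered by group means, most neighbouring groups of a gene did not differ beyond their spread. Of 7 steps between the 8 groups, the gap exceeded the larger SD of both groups at 3 steps for Igfbp4, at 1 for Stat5a and at none for the other 8 genes. Group means ranged from 1.58 (AggE, 1.5 wks) to 5.36 (Ctrl, 24 hrs post-10-day) for Igfbp1, from 0.10 (Ctrl, 1.5 wks) to 1.86 (AggE, 24 hrs post-5-day) for Igfals and from 1.91 (AggE, 4 wks) to 3.81 (Ctrl, 1.5 wks) for Igfbp4. The Igf1 means lay between 4.48 (AggE, 4 wks) and 5.42 (AggE, 1.5 wks). The mean Cy-5 signal of Igf1 (log2) in these groups was 12.71 and 12.74, so that the gap lay mostly in the Cy-3 reference channel. The cause was not tested. These levels at different times are a description, since times lay mostly on different slides and, for 24 hrs and 4 wks, on different scan days.

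The 10 genes varied more between mice of a group than most genes did. The SD within groups was 1.53 for Igfbp1, 1.22 for Cish and 0.921 for Socs2, and at least 99.8% of the 18259 genes had a smaller one. It was 0.617 for Igfbp2, 0.562 for Igfals, 0.438 for Igfbp4 and 0.411 for Ghr, with 94.2% to 98.7% of genes below. The least variable were Stat5b (0.323), Igf1 (0.288) and Stat5a (0.233), of which Stat5a was close to the median of 0.226 over the 9117 genes well above background on at least 20 arrays. Among these 9117 genes the share with a smaller SD was 53.2% for Stat5a, 72.1% for Igf1 and 78.7% for Stat5b. It was 88.7% for Ghr, 90.7% for Igfbp4, 96.1% for Igfals and higher for the other members. With this spread the 95% confidence interval of a fold change reached 0.309 (Stat5a) to 2.00 (Igfbp1) on either side at the 3 earlier times, 0.266 to 1.72 at 4 wks, and 0.407 to 2.82 for the differences between comparisons.

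Of the 45 pairs among the 10 genes, 7 were correlated across mice within groups at an adjusted p of 0.05 or less (Pearson's r, group means removed, permutation within groups), 4 positively and 3 negatively. Besides Cish and Socs2, Igf1 went with Igfbp4 (r = 0.56, rho = 0.56, adjusted p = 0.0257) and against Igfals (r = -0.53, rho = -0.65, adjusted p = 0.00247). Igfals went with Stat5a (r = 0.60, rho = 0.55, adjusted p = 0.0042) and with Igfbp2 (r = 0.48, rho = 0.47, adjusted p = 0.0350). Ghr went against Igfals (r = -0.59, rho = -0.55, adjusted p = 0.00495) and against Stat5a (r = -0.48, rho = -0.42, adjusted p = 0.0488, but 0.11 for rho). The sign of all 7 held when slide means were removed too, but Ghr then had r of -0.32 with Igfals and -0.18 with Stat5a. The permutation did not take slides into account, and r with slide means removed was not tested. Without the 2 mice farthest from the median of the first gene, r was -0.56 for Igf1 with Igfals, 0.50 for Igf1 with Igfbp4, 0.48 for Igfals with Stat5a, 0.39 for Igfals with Igfbp2, -0.38 for Ghr with Igfals and -0.31 for Ghr with Stat5a. The share of features well above background also differed between arrays of a group, and its r was -0.47 with Igf1, 0.45 with Igfbp1, 0.40 with Igfbp2, 0.30 with Igfals and -0.03 with Socs2. The part of that share in these pairs was not tested.

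**Figure D5:**
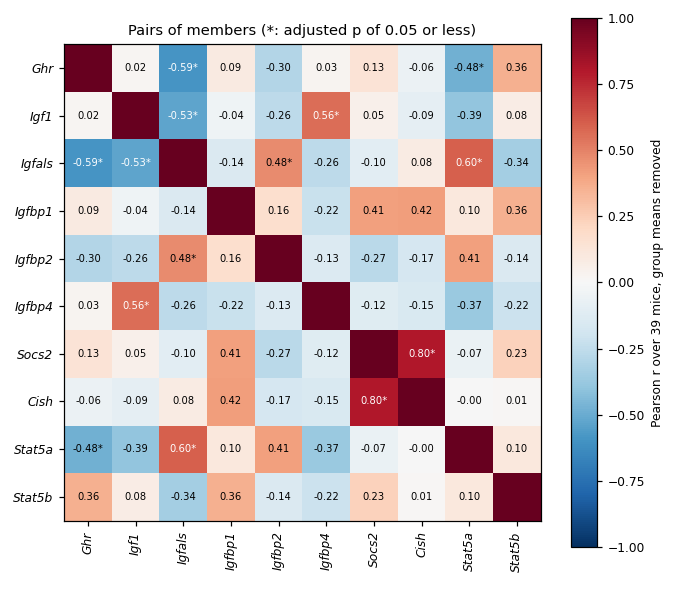
Pearson's r between each pair of the 10 genes over 39 mice after group means are removed, in red for positive and blue for negative values, with an asterisk at an adjusted p of 0.05 or less. The strongest cell is Cish with Socs2 (0.80), and Igfals is in 4 of the 7 marked pairs.

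Among the 9116 other genes well above background on at least 20 arrays, the genes whose levels over all 39 arrays were most like those of a member were ranked by Pearson's r, with no test. Differences between groups, slides and scan days were left in. For Igf1 they were Gpc1 (0.90), Mcm4 (0.88) and Cd79b (0.88). For Igfbp1 they were Nfil3 (0.78), a transcript with no symbol (0.77) and Sucnr1 (0.76). For Socs2 they were Cish (0.78), Zfp655 (0.74) and Abhd17b (0.73). With group means removed r was 0.80, 0.84 and 0.80 for Igf1, 0.69, 0.67 and 0.62 for Igfbp1 and 0.80, 0.82 and 0.76 for Socs2. Cish, which was added to these after its values were seen, was most like Phlda1 (0.91), then Socs2 (0.78) and Foxa2 (0.75).

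The other genes of the pathway were counted by role. Of 10 further genes of receptor signalling 9 were on the array, and 1 fell at 4 wks, when 3.96% of all genes were called: Ptpn11, the phosphatase SHP2, from -0.37 ± 0.37 to -0.84 ± 0.25 (SD, n = 6 each; -0.47, adjusted p = 0.0344). None of the 9 passed at the other times, and the median of the 9 at 4 wks was -0.12. Of the 4 further inhibitors of receptor and JAK2, none passed at any time, and the smallest p was that of Socs1 at 4 wks (-0.30, adjusted p = 0.198). Of the 8 other IGF ligands, receptors and binding proteins, 1 fell at 4 wks, against the same 3.96%: Igf2r, the receptor that clears IGF-2. It was 0.32 to 0.55 in Ctrl and -0.17 to 0.15 in AggE mice, without overlap (-0.47 ± 0.10, adjusted p = 0.0127). Under the 13 alternative settings Igf2r passed in 8 and Ptpn11 in 5, and when each of the 12 mice was left out in turn they passed in 12 and 6.

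STAT5B also sets the levels of liver genes that differ between the sexes, and 4 further STAT5-responsive regulators and both sex-biased sets were therefore counted. None of the 4 regulators passed, with the smallest p for Egfr at 1.5 wks (-0.92, adjusted p = 1.00). Of 11 male-biased genes on the array 1 fell at 24 hrs post-5-day (3.25% of all genes were called): Cyp4a12a, a fatty acid hydroxylase, at 4.56, 4.19, 4.30 and 4.72 in Ctrl and 2.73, 3.16, 2.88, 2.35 and 3.88 in AggE mice (-1.44, adjusted p = 0.0426). Its direction turned with the signals processed by Feature Extraction (0.36), and it passed under 4 of 12 alternative settings and in 1 of 9 fits that each left out a mouse. None passed at the other times. Of the 11, 9 had lower AggE means at 24 hrs post-5-day (median -0.58) and 9 at 4 wks (median -0.41). Among all genes, 50.5% and 53.0% had higher AggE means at these times. The medians of the 11 were -0.01 at 24 hrs post-10-day and 0.02 at 1.5 wks.

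Of 11 female-biased genes on the array 3 passed with a higher AggE mean at 24 hrs post-5-day, against 3.25% of all genes called in either direction. Cyp2b9, a cytochrome P450 of female liver, was 1.41, 0.96, 1.23 and 2.03 in Ctrl and 3.02, 3.45, 1.76, 3.59 and 3.39 in AggE mice (1.64, adjusted p = 0.0312). Its relative Cyp2b13 rose by 1.08 (adjusted p = 0.0254), and Abcd2 passed too, but none of these 9 arrays read it well above background, so that its size is not known, and with the processed signals its sign turned. Cyp2b13 rose also at 24 hrs post-10-day, from 2.00, 1.79, 1.45 and 0.95 in Ctrl to 3.20, 3.70, 3.72, 2.83 and 3.34 in AggE mice (1.81, adjusted p = 0.000554), without overlap, when 0.0931% of all genes were called. Cyp2b9 did not overlap either at that time, with 2.72 to 3.18 in Ctrl and 4.19 to 4.94 in AggE mice, but did not pass (1.56, adjusted p = 0.508). At 4 wks Cyp2a4 was 7.23 to 8.23 in Ctrl and 5.61 to 7.02 in AggE mice and fell by 1.25 (adjusted p = 0.0222), when 3.96% of all genes were called. When each mouse was left out in turn, Abcd2 passed in 9 of 9 fits, Cyp2b9 in 3 of 9, Cyp2b13 in 6 of 9 post-5-day and 9 of 9 post-10-day, and Cyp2a4 in 9 of 12. Under the alternative settings Abcd2 passed in 5 of 11, Cyp2b9 in 5 of 12, Cyp2b13 in 5 of 12 post-5-day and 6 of 12 post-10-day, and Cyp2a4 in 5 of 13, where its fold change was between -1.80 and -0.45. The medians of the 11 genes were 0.09, -0.02 and 0.04 in these comparisons, and 6 of the 11 were well above background on at least 20 of the 39 arrays. Cyp2b9 and Cyp2b13, like Cyp2a4 and Cyp4a12a, have near-identical relatives whose RNA may bind the same feature.

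Beside the lower means of Igf1, Cish, Stat5a and Stat5b at 4 wks, markers of the liver's cells gave the following values. All 5 hepatocyte markers had lower means in AggE livers (median -0.25, none with an adjusted p of 0.05 or less). Of the 3 Kupffer cell markers Clec4f (-0.81, adjusted p = 0.144) and Cd5l (-1.13, adjusted p = 0.0582) had lower means and Vsig4 a higher mean (0.26), with a summed signal (log2) of 11.2 to 12.5 in Ctrl and 10.95 to 12.1 in AggE mice. Of the 3 biliary markers all had lower means (median -0.23), and Epcam, well above background on 1 of 39 arrays, was the only marker that passed. All 3 stellate cell markers had lower means too (median -0.27), 2 of 4 leukocyte markers were higher and 2 lower (median -0.04), and the median of the 2 erythroid markers was 0.45. The medians of the other sets were 0.03 for endothelial, 0.09 for pancreas, 0.68 for muscle and -0.06 for adipose markers. The part of these cells in the results at 4 wks was not tested.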

How the data were processed

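Each of 39 arrays compared the liver RNA of 1 mouse (Cy-5) with a universal mouse reference RNA (Cy-3), without dye swap. The authors deposited the median intensities of spots and of the background around them, read by Agilent Feature Extraction 11.5.1.1 (file headers), and processed intensities that it had background-corrected and dye-normalized. A deposited table holds its log10 ratios of Cy-5 over Cy-3, in which 10.7% to 48.9% of the ratios per array are exactly 0 and were kept as such.

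In limma 3.58.1 (R 4.3.3, statmod 1.5.0) the background was subtracted with normexp (offset 50), arrays were loess-normalized and then quantile-normalized, spots marked as outliers (0.295% to 1.46% per array) were left out, and spots of a feature were averaged to log2 ratios. The offset shrinks fold changes of dim features. One fit over 8 groups gave the moderated t, with Benjamini-Hochberg adjustment over 25903 features. The number of arrays limits the precision, and litters are not given in the sources used here. A gene is given by its feature with the highest mean Cy-5 signal, and 24375 features had a symbol (RefSeq). All 10 members were named in every comparison, and other genes of the pathway where the adjusted p was 0.05 or less or, in lists with few such genes, by the smallest p. The members and lists were chosen with earlier results of these data known. Correlations were computed in Python 3.11.15 (NumPy 2.4.6, SciPy 1.17.1, pandas 2.3.3). The fit was tested on simulated data. The alternatives were other background, normalization, channel, feature, group and block settings and leaving out each array in turn. The second features of Ghr, Igfbp4 and Stat5b were used only where named.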

Additional observations from a re-analysis of the deposited data

Results flagged for a closer look

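Of 80 values, 1 for each gene and group, 7 (8.75%) held a mouse that stood apart from the others of its group by Dixon's test at the 95% level, which chance gives in about 1 of 20. The 7 were not weighed further, and no difference between comparisons passed its test. At 4 wks, AggE mouse 1 stood apart in Ghr and in Stat5a: it had the highest Ghr level, 3.30 against 1.76 to 2.14 in the other AggE mice, and the lowest Stat5a level, -0.043 against 0.35 to 0.57, on the AggE array with the lowest share of features well above background (42.0%). AggE mouse 6 at 4 wks had a Cish level of 2.56, against -0.45 to 0.31 in the other 5. At 1.5 wks AggE mouse 2 had an Igfbp1 level of 4.27, against 0.35 to 1.34, on the array with the highest share of features well above background at that time (47.7%). At 24 hrs post-10-day AggE mouse 5 was low in Ghr, 2.21 against 2.61 to 2.76, and AggE mouse 1 was high in Igf1, 4.93 against 4.54 to 4.64. At 24 hrs post-5-day AggE mouse 4 had a Stat5b level of 1.60, against 0.76 to 1.00, on the array with the lowest share of features well above background in its group (15.7%).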

How the results depend on the processing

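The count of members past an adjusted p of 0.05 stayed at 0 in 6 of the 7 comparisons under all alternatives and when each array was left out, and at an unadjusted p of 0.05 it was between 0 and 2 there. At 4 wks it was 2 without quantile normalization between arrays and 2 with Aquantile, which leaves log ratios as they are (Igf1 and Stat5a), and 1 with slide as a fixed block (Stat5a). The calls over all 25903 features rose too, from 886 to 2477, 2477 and 1002. It was 0 to 3 when each array was left out: 3 without Ctrl mouse 2 (1845 features called), and 1 each without AggE mouse 1 (2154), AggE mouse 6 (961) or Ctrl mouse 6 (640). Between 1 and 5 members had an unadjusted p of 0.05 or less under the alternatives, with 1 (Stat5a) for slide as a fixed block. None of the 6 fold changes with an unadjusted p of 0.05 or less changed sign. Of the other 34, 18 did in at least 1 setting, with a lowest p of 0.127, and the cause was not tested. The replicate block called 0 members in every comparison. Mice with the same number did not deviate together (r above 0.1 in 5 of 18 pairs, from -0.45 to 0.50), so the numbers were not taken as pairs. The slide as a fixed block could not be fitted at 24 hrs or for differences between comparisons. The median of all genes moved by no more than 0.1 in any comparison without background subtraction, with the processed signals, without quantile normalization, with Aquantile and from Cy-5 alone, the settings for which it was computed.

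The log2 fold changes that turned were as follows. Without background subtraction they were Igfals -0.18 at 24 hrs post-5-day and Stat5a -0.18 at 1.5 wks. With the processed signals they were Igfbp1 0.57 at 24 hrs post-5-day, Igfals -0.19 and Stat5a 0.12 at 24 hrs post-10-day, and Igf1 -0.034, Stat5a -0.23 and Stat5b -0.0032 at 1.5 wks, together with Cyp4a12a 0.36 and Abcd2 -0.0057 at 24 hrs post-5-day. Without quantile normalization, and with Aquantile, they were Igf1 -0.31, Igfals -0.51, Igfbp4 -0.50 and Socs2 -0.058 at 24 hrs post-5-day, Igf1 -0.20 and Igfals -0.067 at 24 hrs post-10-day, Stat5b -0.073 at 1.5 wks, and Igfbp1 -0.81 and Igfbp2 -0.048 at 4 wks. From Cy-5 alone they were Igfbp4 -0.074 at 24 hrs post-5-day, Stat5a -0.060 at 1.5 wks and Igfbp1 -0.17 at 4 wks. From the deposited log10 ratios they were Igfals -0.37 at 24 hrs post-5-day, Igfals -0.23 and Stat5a 0.14 at 24 hrs post-10-day and Stat5a -0.27 at 1.5 wks. The mean over features gave Ghr 0.0064 at 4 wks. With slide as a random block they were Igfbp1 0.093 and Igfbp4 -0.038 at 24 hrs post-5-day, Stat5a 0.0032 at 24 hrs post-10-day, Igfbp2 0.015, Stat5a -0.0073 and Stat5b -0.097 at 1.5 wks, and Ghr 0.12, Igfbp1 -0.36 and Igfbp2 -0.051 at 4 wks. With slide as a fixed block they were Igf1 -0.020, Igfals -0.013, Igfbp2 0.54, Stat5a -0.022 and Stat5b -0.25 at 1.5 wks, and Ghr 0.51, Igfbp1 -1.42 and Igfbp2 -0.16 at 4 wks. The replicate block gave Socs2 -0.085 at 24 hrs post-5-day and Stat5a -0.0097 and Stat5b -0.022 at 1.5 wks. When each array was left out, the fold changes that turned ranged at 24 hrs post-5-day from -0.19 to 0.28 for Igfals, -0.74 to 0.20 for Igfbp1, -0.12 to 0.13 for Igfbp4 and -0.19 to 0.34 for Socs2. At 24 hrs post-10-day they ranged from -0.46 to 0.36 for Socs2 and -0.12 to 0.0071 for Stat5a. At 1.5 wks they ranged from -0.081 to 0.24 for Igf1, -0.075 to 0.54 for Socs2, -0.093 to 0.13 for Stat5a and -0.19 to 0.18 for Stat5b, and at 4 wks from -0.57 to 0.86 for Igfbp1 and -0.13 to 0.27 for Igfbp2.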
